A study of Homo sapiens with 4 samples.

Results

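The 8 genes described here are 6 metallothioneins (MT1E, MT1F, MT1G, MT1M, MT1X and MT2A), the metal-sensing transcription factor MTF1 and the zinc exporter SLC30A1. They were chosen by gene name, as part of the zinc response, from the 51103 genes of a read count table, and all 8 were found. The table covers polyadenylated RNA of human oral squamous carcinoma lines, SCC15 and CAL27, grown in DMEM with serum, with 1 library in each of 4 groups. The groups are SCC15 cells with 10 µM 5-AZA-CdR (decitabine, labelled DAC) for 48 h, SCC15 cells with the solvent DMSO for 48 h, CAL27 cells with 10 µM decitabine for 48 h, and CAL27 cells with DMSO for 48 h. The submitters state as the purpose of the series a screen for genes whose expression differs after the drug. Decitabine is a cytidine analogue that is built into DNA and traps DNA methyltransferases.

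Metallothioneins are small cysteine-rich proteins that hold zinc and copper ions and also take up toxic metals such as cadmium. MTF1 senses free zinc and binds metal response elements, short motifs in the promoters of metallothionein genes and of SLC30A1, whose product carries zinc out of the cytosol. The functional human metallothionein genes lie side by side on chromosome 16, and promoters of MT1 genes there have been reported as methylated in several human cancers.

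The counted reads numbered between 14524461 and 17583706 per library, and 0 reads were given a floor of 3 reads, or 0.171 to 0.207 CPM, a count scaled to the total of its library. The libraries labelled SCC15 went against that label in part: of 10 markers of squamous epithelium, 2 and 1 had at least 10 reads in SCC15 cells with decitabine and DMSO, against 9 and 8 in CAL27 cells with decitabine and DMSO. The summed level of these markers was 3.70 and 1.15 CPM in the SCC15 libraries and 1167 and 1067 in the CAL27 libraries. In the SCC15 library with DMSO, 8 markers were at 0 (TP63, KRT17, DSG3, DSC3, LY6D, KRT5, KRT14 and KRT6A), and 5 of these (DSG3, DSC3, LY6D, KRT14 and KRT6A) were at 0 with decitabine as well. Of 5 general epithelial markers, KRT8 and KRT18 were abundant in all 4 libraries. CDH1 had 1 and 4 reads in SCC15 cells with decitabine and DMSO against 3911 and 2727 in CAL27 cells. EPCAM had 39 and 31 against 4585 and 4368 reads in that order. KRT19 had few reads in both lines, 28 and 2 against 32 and 9. Every statement about SCC15 below is about the libraries so labelled, and the decitabine ratios of the members are also given for CAL27 alone. Comparisons between lines and likeness of patterns rest wholly on these libraries. With 1 library a group, the second line stands in as the repeat of the treatment. The p-values rest on a spread pooled largely across genes, from these 4 libraries alone, and do not measure how far repeat cultures differ. Of 5 mesenchymal markers, VIM had 27011 and 37300 reads in SCC15 cells with decitabine and DMSO against 80 and 41 in CAL27 cells, and ZEB1 was likewise higher in SCC15. COL1A1, COL1A2 and CDH2 had fewer reads in SCC15 than in CAL27 with either treatment. The summed level of 1606 and 2564 CPM in SCC15 cells against 109 and 83.5 in CAL27 cells is thus mostly VIM. The part of these markers in the results below was not tested.

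Promoters were searched for the core of the metal response element, the motif that MTF1 binds; a match describes letters and is not evidence of a bound site. RefSeq (GRCh38.p14) gave a promoter for 4 of the 8 members (MT2A, MT1X, MTF1 and SLC30A1), and MT1E, MT1F, MT1G and MT1M were not matched. The 250 bases before the RefSeq gene start are shown for the 2 matched metallothioneins and for the exporter, with cores of the metal response element in capitals. The motif was searched as TGCACNC or TGCGCNC on both strands, where N is any base. The windows are chr16:56608334-56608583 on the plus strand for MT2A, chr16:56682220-56682469 on the plus strand for MT1X and chr1:211579162-211579411 on the minus strand for SLC30A1. The RefSeq starts of MT2A and MT1X lie inside the gene spans given below, and that of SLC30A1 lies upstream of its span.
MT2A: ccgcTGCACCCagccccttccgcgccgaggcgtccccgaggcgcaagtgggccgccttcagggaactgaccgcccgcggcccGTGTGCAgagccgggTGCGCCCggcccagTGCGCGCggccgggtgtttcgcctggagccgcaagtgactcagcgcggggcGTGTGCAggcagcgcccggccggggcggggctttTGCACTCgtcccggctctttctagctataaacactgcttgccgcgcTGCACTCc
MT1X: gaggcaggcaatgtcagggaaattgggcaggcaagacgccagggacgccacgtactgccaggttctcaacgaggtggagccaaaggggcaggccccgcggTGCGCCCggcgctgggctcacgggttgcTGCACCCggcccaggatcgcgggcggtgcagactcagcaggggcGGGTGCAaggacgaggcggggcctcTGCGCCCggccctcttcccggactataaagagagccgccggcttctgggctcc
SLC30A1: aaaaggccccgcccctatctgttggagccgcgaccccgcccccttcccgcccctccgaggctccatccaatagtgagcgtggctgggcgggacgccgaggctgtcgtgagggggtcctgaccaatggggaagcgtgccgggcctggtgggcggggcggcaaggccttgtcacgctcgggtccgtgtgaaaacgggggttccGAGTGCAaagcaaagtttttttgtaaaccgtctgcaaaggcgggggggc
MT2A held 7 cores, 5 on the strand of the gene and 2 on the other, and 0.0313% of 35116 promoter windows of that length held as many. MT1X held 4 cores, a number reached by 0.37% of windows, and SLC30A1 held 1, on the opposite strand. At least 1 core was found in 24.8% of all windows, and none of these letters were in the MTF1 window. The windows also held more CpG, the dinucleotide that is methylated in human DNA, than the median window. MT2A had 32 CpG, MT1X 22, SLC30A1 22 and MTF1 20, against a median of 11 over all windows. As many CpG were found in 9.52% of windows for MT2A, 28.0% for MT1X and SLC30A1, and 32.4% for MTF1, so only the MT2A number was uncommon.

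The coding sequences show how alike the transcripts are. Both abundant members are printed here from the start to the stop codon, from GENCODE 29 transcripts MT2A-201 and MT1E-201, with the bases that differ between them in capitals. On GRCh38 the coding parts of these 3-exon genes span chr16:56608656-56609354 (MT2A) and chr16:56625852-56626971 (MT1E), both on the plus strand, with introns left out of the print.
MT2A: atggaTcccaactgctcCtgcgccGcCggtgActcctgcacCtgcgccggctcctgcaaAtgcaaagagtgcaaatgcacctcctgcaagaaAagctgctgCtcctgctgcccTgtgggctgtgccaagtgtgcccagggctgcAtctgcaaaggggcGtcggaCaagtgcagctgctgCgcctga
MT1E: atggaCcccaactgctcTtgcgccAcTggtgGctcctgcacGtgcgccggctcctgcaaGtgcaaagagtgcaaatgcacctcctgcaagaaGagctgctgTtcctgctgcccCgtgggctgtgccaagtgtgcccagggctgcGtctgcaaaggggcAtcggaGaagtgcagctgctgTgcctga
The 2 sequences differ at 14 of 186 bases (92.5% identity), and each has 20 cysteine codons among 61. Among the 5 members with coding sequences of this length, identity was between 88.7% and 92.5%. Reads from stretches without a difference can match several genes. Of the 50-base windows of the MT2A transcript, 4.88% occurred unchanged in a transcript of another metallothionein gene, with 5.34% for MT1E, 3.59% for MT1F, 7.05% for MT1M, 15.96% for MT1X and 20.2% for MT1G. How the counting treated reads with several matches is not given in the sources used here, so the split between members is uncertain.

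MT2A, the main metallothionein of most human cells, was the most abundant metallothionein in every library (ENSG00000125148, chromosome 16, 56608199 to 56609497, plus strand). It had 21171 reads in SCC15 cells with decitabine and 23703 in SCC15 cells with DMSO, and 63973 in CAL27 cells with decitabine and 47282 in CAL27 cells with DMSO. Both CAL27 libraries were above both SCC15 libraries. In such bulk RNA, fewer expressing cells and less RNA per cell cannot be told apart. By FPKM, the authors' value scaled for transcript length and depth, MT2A stood at 927 and 1230 in SCC15 cells and at 3347 and 2506 in CAL27 cells with decitabine and DMSO. These levels gave it rank 20, 17, 5 and 11 among all genes in the same order of libraries.

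MT1E is the second metallothionein by level, in CAL27 alone (ENSG00000169715, chromosome 16, 56625475 to 56627112, plus strand). It had 4 reads in SCC15 cells with decitabine and 0 with DMSO, against 9691 and 8636 reads in CAL27 cells with decitabine and DMSO. In FPKM this was 0.216 and 0 in SCC15 cells and 626 and 565 in CAL27 cells, where it ranked 30 and 35 of all genes. A transcript among the most abundant of one line was thus at or near the limit of detection in the other, with or without the drug.

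MT1F and MT1M, metal-binding isoforms of the same cluster, had the same layout at a lower level. MT1F (ENSG00000198417, chromosome 16, 56657694 to 56660698, plus strand) had 1 and 0 reads in SCC15 cells with decitabine and DMSO, against 143 and 56 in CAL27 cells with decitabine and DMSO. MT1M (ENSG00000205364, chromosome 16, 56632233 to 56633986, plus strand) had 1 and 0 reads in SCC15 cells and 92 and 54 in CAL27 cells, in the same order of treatments. MT1E, MT1F and MT1M are therefore 3 of 324 genes with at least 100 reads over both CAL27 libraries and at most 4 over both SCC15 libraries. Those 324 are 2.82% of the 11491 genes with that many CAL27 reads, by limits set after the values were seen.

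MT1X and MT1G, the isoforms at the far end of the cluster, had few reads or none. MT1X (ENSG00000187193, chromosome 16, 56682424 to 56684196, plus strand) had 15 and 30 reads in SCC15 cells with decitabine and DMSO, and 22 and 19 in CAL27 cells with decitabine and DMSO, so that the lines overlapped. In GENCODE 29, 165 of the 450 bases of its transcript MT1X-201 (36.7%) also lie in exons of AC026461.1, a transcript on the same strand with 0 reads in all 4 libraries. Whether reads in shared exons were counted is not given in the sources used here, and the level of MT1X is uncertain for that reason. MT1G (ENSG00000125144, chromosome 16, 56666731 to 56668065, minus strand) had 1 read in CAL27 cells with decitabine and 0 in the other 3 libraries, which allows up to 0.171 CPM in SCC15 cells with decitabine.

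MTF1 and SLC30A1, the regulator and the exporter, lie on chromosome 1 and differed in layout. MTF1 (ENSG00000188786, 37809567 to 37859620, minus strand) had 171 and 149 reads in SCC15 cells with decitabine and DMSO, against 537 and 573 in CAL27 cells with decitabine and DMSO. Both SCC15 libraries lay below both CAL27 libraries. SLC30A1 (ENSG00000170385, 211571568 to 211578742, minus strand) had 801 and 736 reads in SCC15 cells and 811 and 715 in CAL27 cells, in the same order. Its FPKM was 8.32 and 9.07 in SCC15 cells and 10.1 and 8.99 in CAL27 cells, the narrowest relative range among the 7 tested members.

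**Figure D1:**
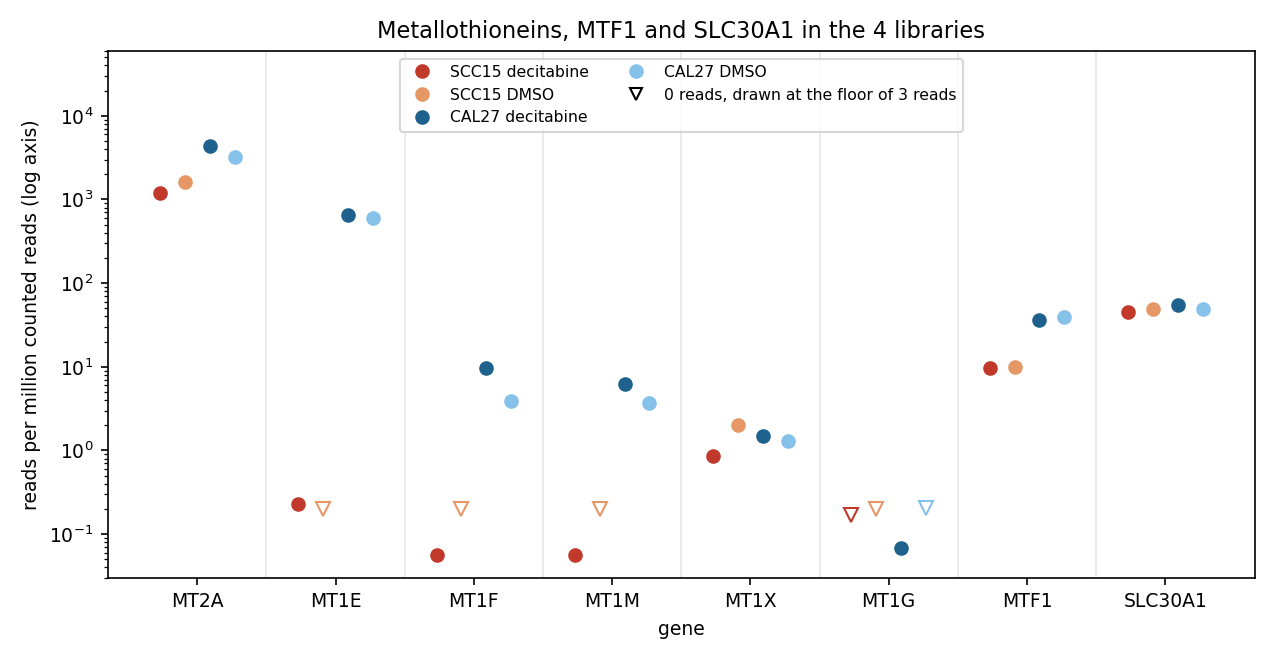
Level in CPM (log axis) of each member in SCC15 cells with decitabine, SCC15 cells with DMSO, CAL27 cells with decitabine and CAL27 cells with DMSO, 1 point per library; open triangles stand for 0 reads and are drawn at the floor of 3 reads, so that points of 1 read lie below them. MT2A is at the top in every library, MT1E, MT1F and MT1M separate the lines, and SLC30A1 is nearly level.

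The line comparison set MT2A, MTF1 and 3 MT1 genes apart from SLC30A1 and MT1X. In a model with terms for line and treatment, tested with edgeR's quasi-likelihood test and Benjamini-Hochberg adjustment over 15427 genes, 5 of the 7 tested members were lower in SCC15 than in CAL27, and 0 were higher. MT1G had too few reads to be tested. Of all genes tested, 22.7% were lower in SCC15 and 21.6% higher at the adjusted p threshold of 0.05. The 5 lower members were MT1E, MT1F, MT1M, MT2A and MTF1. MT1E, MT1F and MT1M passed the filter on low counts through their CAL27 reads alone and could come out only as lower in SCC15, so the count of 5 is no measure of how often members differed and their p-values are not given. Of the 4 tested members with at least 10 reads in every library, 2 were lower (MT2A and MTF1). Of these 4, 0 were higher in SCC15 even at an unadjusted p of 0.05, with edgeR or DESeq2.

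MT1E was at least 2767-fold lower in SCC15 than in CAL27 with DMSO, counted against the floor of 3 reads per library. With decitabine, 4 against 9691 reads made it 2506-fold lower, with an exact 95% counting interval of 979 to 9201. For MT1F the same bound with DMSO was 17.9-fold lower, and 1 against 143 reads with decitabine gave 148-fold lower with an interval of 26.1 to 5883. For MT1M it was at least 17.3-fold lower with DMSO and 95.2-fold lower with decitabine, with an interval of 16.7 to 3800. With DMSO, counting intervals of the log2 ratio, SCC15 over CAL27, ended at -11.1 for MT1E, -3.82 for MT1F and -3.77 for MT1M. They thus allow smaller differences than the folds against the floor. Counting intervals and floors cover counting error only, since PCR copies of 1 molecule cannot be told from separate molecules.

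MT2A was 3.13-fold lower in SCC15 with decitabine (95% counting interval 3.08 to 3.18) and 1.92-fold lower with DMSO (1.89 to 1.95). Its fitted log2 difference, SCC15 over CAL27, was -1.29 ± 0.30 (SE of the fit, 4 libraries, edgeR adjusted p = 0.000558). MTF1 was 3.25-fold lower in SCC15 with decitabine (2.73 to 3.88) and 3.70-fold lower with DMSO (3.08 to 4.46), and its fitted log2 difference was -1.79 ± 0.34 (edgeR adjusted p = 3.28e-05). SLC30A1, a gene that MTF1 activates, had a fitted log2 difference of 0.02 ± 0.28 (adjusted p = 0.971), and MT1X had 0.08 ± 0.75 (adjusted p = 0.946). The signs of these last 2 turned with other scalings, and the large error of MT1X leaves wide room for a difference. The SE is moderated across genes and does not measure how far cultures of 1 line differ.

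Along the cluster, the genes with reads in CAL27 and next to none in SCC15 lay between MT2A and MT1X. MT2A and MT1X, at the ends of a stretch with 12 other metallothionein genes and pseudogenes, had reads in both lines. Those of MT1X were few, 15 to 30 per library, and 15.96% of its 50-base windows also occur in other metallothionein transcripts. Its reads may thus in part belong to other genes, which was not tested. Between them, the SCC15 libraries held 6 reads with decitabine (4 of MT1E, 1 of MT1M and 1 of MT1F) and 0 with DMSO. The CAL27 libraries held 9952 reads there with decitabine and 8748 with DMSO, mostly of MT1E. Apart from MT1E, MT1F and MT1M, the genes there had at most 17 reads in a CAL27 library (MT1DP). MT3, a metallothionein known from brain, on the other side of MT2A, had 3 and 3 reads in SCC15 cells with decitabine and DMSO, and 0 and 0 in CAL27 cells. MT4, farther out on that side, had 0 reads in every library.

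**Figure D2:**
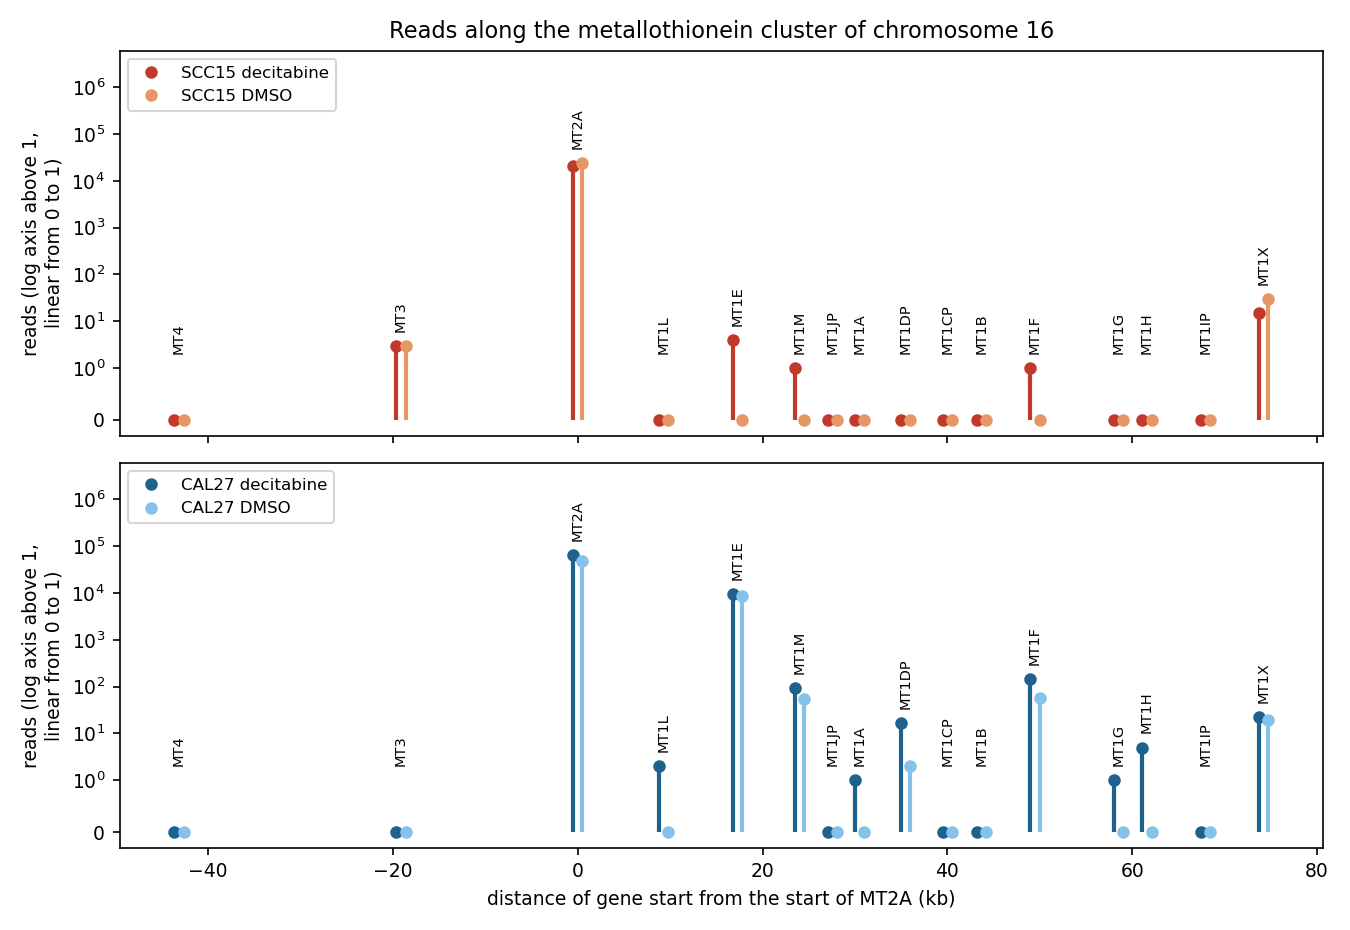
Reads (log axis above 1, linear from 0 to 1) of each metallothionein gene of the chromosome 16 cluster, at the distance of its start from that of MT2A in kb, in SCC15 cells (top, decitabine and DMSO) and CAL27 cells (bottom, decitabine and DMSO). In SCC15 cells the genes between MT2A and MT1X stand at 4 reads or fewer, while MT1E reaches 9691 and 8636 reads in CAL27 cells.

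Genes of other kinds around the cluster varied: 9 of 14 listed neighbours reached 1 CPM in a library of SCC15, and 9 did in CAL27. Of 14 listed neighbours, 10 were tested, of which 4 were higher and 2 lower in SCC15, beside 21.6% and 22.7% of all genes. OGFOD1, a hydroxylase, had 1222 and 1277 reads in SCC15 cells with decitabine and DMSO against 740 and 963 in CAL27 cells. NUP93, a nuclear pore subunit, had 6251 and 4316 against 1991 and 2615 reads in the same order. Both are named with their values seen. GNAO1, a G protein subunit, was among the 2 lower neighbours, with 14 and 1 reads in SCC15 cells with decitabine and DMSO against 423 and 229 in CAL27 cells. GNAO1 passed the filter on low counts mainly through CAL27 reads, and SLC12A3, a neighbour with reads in SCC15 alone, could come out only as higher. The counts of 4 and 2 are therefore no measure of how often neighbours differed.

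With decitabine, no tested member was called across both lines. The test called 0 of 7 members in either direction, where 0.544% of all genes tested were higher and 0.0778% lower. With so few genes called, this does not show that the members stayed level. The count at an unadjusted p under 0.05 was also 0 in both directions with edgeR and with DESeq2, and limma on log2(FPKM + 0.1) gave 1 member at that level. The shared log2 folds, decitabine over DMSO, were -0.07 ± 0.30 for MT2A (adjusted p = 0.962), 0.20 ± 0.40 for MT1E (0.912) and 1.26 ± 0.74 for MT1F (0.578). They were 0.72 ± 0.80 for MT1M (adjusted p = 0.81), -0.60 ± 0.75 for MT1X (0.84), -0.16 ± 0.33 for MTF1 (0.912) and -0.06 ± 0.28 for SLC30A1 (0.969). Folds of members with few reads in SCC15 depended on the method: that of MT1E was 1.26 with DESeq2, 0.90 with limma on log2(FPKM + 0.1) and 0.08 with the GC trend removed. Over all alternatives fitted to both lines, the fold was between 0.53 and 1.41 for MT1F, 0.36 and 0.99 for MT1M, -0.81 and -0.22 for MT1X, and -0.21 and -0.06 for MTF1. The signs of the MT2A and SLC30A1 folds turned with total-count scaling, which moved the median log2 ratio of all genes by 0.02 in SCC15 and 0.14 in CAL27.

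Within SCC15, the ratio of reads with decitabine over DMSO has no test, and 4 members had a level of at least 1 CPM. MT2A was 1.34-fold lower with decitabine (95% counting interval 1.32 to 1.37), a log2 ratio of -0.42, or -0.80 once the trend of the ratio with transcript GC had been removed. MT1X had a log2 ratio of -1.15, from 15 reads with decitabine against 30 with DMSO (2.40-fold lower, interval 1.25 to 4.80). It was the 1 member of these 4 to pass 2-fold, where 6.51% of genes were at least 2-fold lower and 13.2% at least 2-fold higher. MTF1 and SLC30A1 had log2 ratios of -0.06 and -0.14, with counting intervals of -0.39 to 0.26 and -0.29 to 0.01. With the GC trend removed, the ratio of SLC30A1 was 0.30. MT1E had 4 reads against 0, at least 1.11-fold higher against the floor, though the counting interval of its log2 ratio started at -0.86. MT1F and MT1M were at or under the floor in both libraries, so that a difference was not detectable at this depth.

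Within CAL27, 7 members had a level of at least 1 CPM, and MT1F alone passed 2-fold. Its 143 reads with decitabine against 56 with DMSO gave a ratio of 2.29 (95% counting interval 1.67 to 3.18), a log2 ratio of 1.17. In this line 5.14% of genes were at least 2-fold higher and 1.29% at least 2-fold lower. The MT1F log2 ratio was 1.01 with the GC trend removed. MT1M had a ratio of 1.53 (1.08 to 2.18), a log2 ratio of 0.60, or 0.37 with the GC trend removed, and MT2A had a ratio of 1.21 (1.20 to 1.23). The MT2A log2 ratio of 0.28 (0.26 to 0.30) was 0.42 with total-count scaling and 0.21 with the GC trend removed. Scaling thus moved it by more than its counting interval. MT1E, at a ratio of 1.01 (0.978 to 1.04), was nearly level, so that MT1E and MT1F, genes of 1 cluster, had ratios whose counting intervals did not overlap. MTF1 was 1.19-fold lower (1.05 to 1.34), SLC30A1 had a ratio of 1.02 (0.92 to 1.13) and MT1X of 1.04 (0.537 to 2.03).

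**Figure D3:**
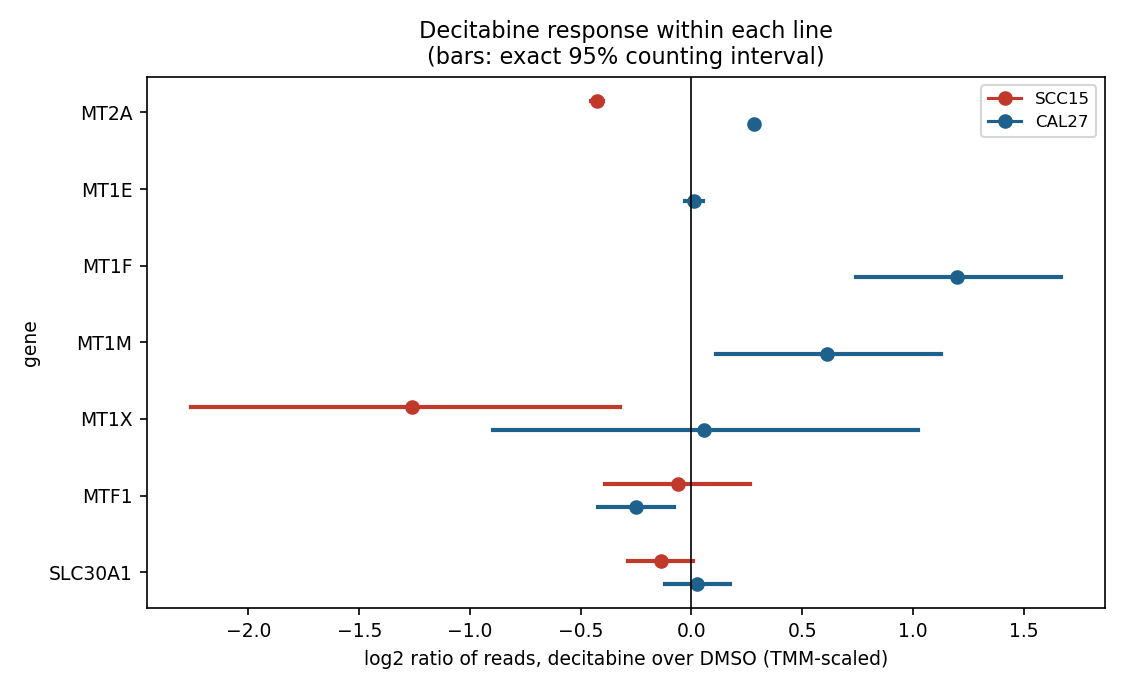
Log2 ratio of reads, decitabine over DMSO, of each member within SCC15 and within CAL27; bars are exact 95% counting intervals of the 1 library pair and no replicate error, and the ratios carry no prior count. MT2A lies below 0 in SCC15 and above 0 in CAL27, and MT1F is farthest above 0 in CAL27; MT1E, MT1F and MT1M have no SCC15 point because the DMSO library had 0 reads.

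Summed over the 6 member metallothioneins, reads made up 0.121% and 0.16% of the SCC15 libraries with decitabine and DMSO, and 0.502% and 0.386% of the CAL27 libraries with decitabine and DMSO. The log2 ratio of decitabine over DMSO for the sum was -0.42 in SCC15 (95% counting interval -0.45 to -0.40) and 0.24 in CAL27 (0.23 to 0.26). With total-count scaling it was -0.41 in SCC15 and 0.38 in CAL27, the latter outside its counting interval. The sum does not depend on how counted reads were split between these 6 genes. Its direction differed between the lines, and with 1 library a group that difference has no test. With both treatments, the sum was lower in SCC15, by 3.61-fold with decitabine and by 2.27-fold with DMSO.

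The make-up of the sum also differed. MT2A held 99.9% of member metallothionein reads in both SCC15 libraries (exact 95% interval 99.8 to 99.9 with decitabine and with DMSO). In CAL27 it held 86.5% (86.3 to 86.8) with decitabine and 84.4% (84.1 to 84.7) with DMSO, and MT1E held 13.1% and 15.4%. These shares depend on the uncertain split of reads between members, and with 1 library a group they have no test.

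**Figure D4:**
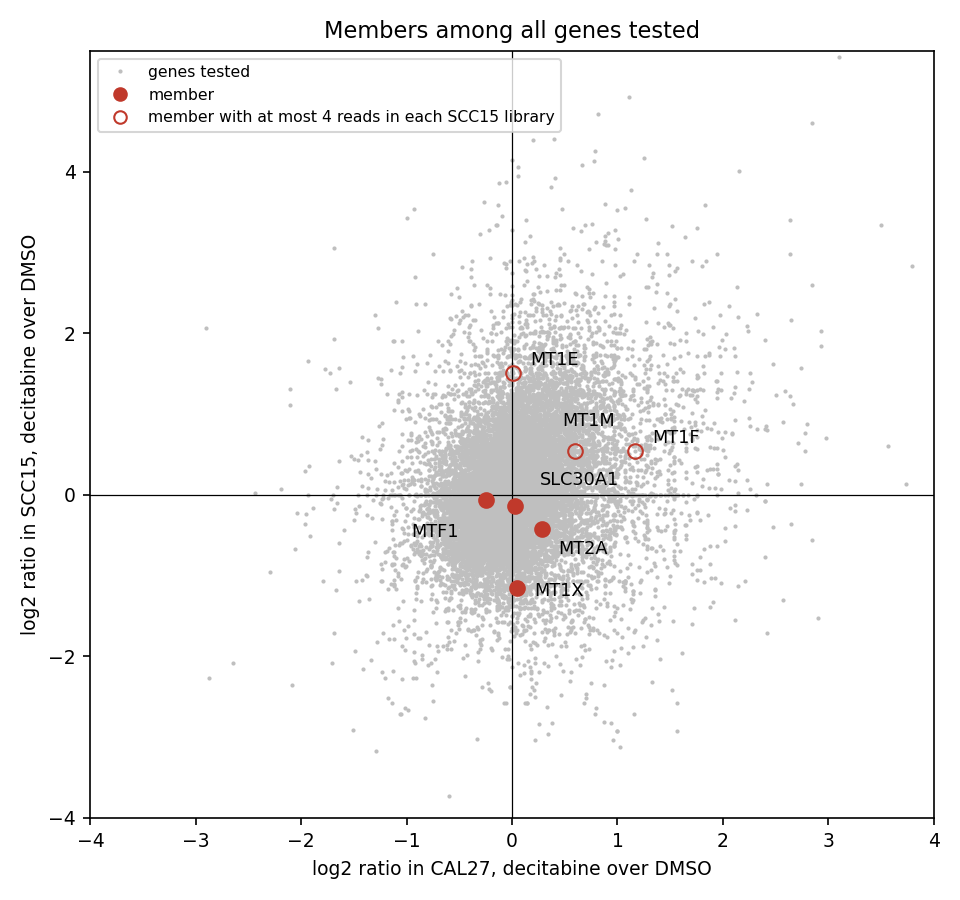
Log2 ratio of decitabine over DMSO in CAL27 (horizontal) and SCC15 (vertical) for each of 15427 genes tested (grey; 4 lie outside the axes) and the 7 tested members (red; open where each SCC15 library held 4 reads or fewer). The members with reads in both lines lie within the cloud of all genes, at -0.25 to 0.28 in CAL27 and -1.15 to -0.06 in SCC15.

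Other metallothionein genes and pseudogenes had few reads. All 14 of the list were in the table and 0 had enough reads to be tested. MT1DP, a transcribed pseudogene between MT1A and MT1B, had 17 reads in CAL27 cells with decitabine against 2 with DMSO, 7.63 times as many after scaling (95% counting interval 1.81 to 68.1). MT1H had 5 against 0 reads, at least 1.5-fold higher against the floor, though the counting interval of its log2 ratio started at -0.28. Both had 0 reads in both SCC15 libraries. Of the 21 metallothionein genes and pseudogenes in the table, 6 and 3 had a read in SCC15 cells with decitabine and DMSO, against 11 and 8 in CAL27 cells.

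Zinc transporters gave no call with decitabine. Of 9 other exporters of the SLC30 family, 5 were tested, and of 14 importers of the SLC39 family, 11 were tested. With decitabine, 0 of either list were called, beside 0.544% of all genes tested called higher and 0.0778% lower. With so few genes called, this does not show that the transporters stayed level. Median log2 ratios were -0.30 in SCC15 and -0.10 in CAL27 for exporters, and 0.07 and -0.11 for importers, where all genes tested had medians of 0.05 and 0.00. SLC30A7, which loads zinc into the secretory pathway, had log2 ratios of -0.48 in SCC15 and -0.20 in CAL27 (shared adjusted p = 0.727, edgeR). SLC30A6, of the same compartment, had -0.30 and -0.47 (adjusted p = 0.687). SLC39A7, which releases zinc from the endoplasmic reticulum, had 2795 and 1238 reads in SCC15 cells with decitabine and DMSO and 1983 and 1426 in CAL27 cells, log2 ratios of 0.91 and 0.32 (adjusted p = 0.454). SLC39A13, a transporter of the Golgi and vesicles, had 0.38 and 0.70 (adjusted p = 0.554).

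Between lines, 2 exporters were lower in SCC15 (SLC30A4 and SLC30A5), and of the importers 1 was higher (SLC39A10) and 1 lower (SLC39A8), all named with their values seen. These are 2 of 5 and 2 of 11 tested genes, beside 22.7% of all genes lower and 21.6% higher. SLC39A10 had 1488 and 1415 reads in SCC15 cells with decitabine and DMSO against 526 and 586 in CAL27 cells. SLC39A8, which also carries cadmium and manganese, had 329 and 393 against 627 and 679 reads in that order. The other 3 tested exporters and 9 tested importers did not pass.

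Copper genes, whose metal metallothioneins also hold, gave no call with decitabine. All 9 were tested and 0 passed, where 0.544% of all genes tested were higher and 0.0778% lower. Median log2 ratios were -0.01 in SCC15 and 0.27 in CAL27. The copper pump gene ATP7B had 736 and 250 reads in SCC15 cells with decitabine and DMSO and 158 and 82 in CAL27 cells (shared log2 fold 1.06 ± 0.35, adjusted p = 0.201, edgeR), and the copper chaperone ATOX1 had log2 ratios of 0.54 and 0.41 (adjusted p = 0.585). Between lines ATP7B was higher in SCC15 (log2 difference 1.93 ± 0.36, adjusted p = 2.69e-05). CCS, the copper chaperone of superoxide dismutase, ATP7A, the second copper pump, and SLC31A2, a low-affinity copper transporter, were lower there, and these 3 are named with their values seen. That made 1 higher and 3 lower of 9, beside 21.6% and 22.7% of all genes. SLC31A2 rested on 0 and 1 reads in SCC15 cells with decitabine and DMSO against 13 and 19 in CAL27 cells, and it too could come out only as lower.

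Genes of metal and protein damage stress and glucocorticoid targets, which share inducers with metallothioneins, gave no call with decitabine either, at 0 of 11 and 0 of 7 tested. Of all genes tested, 0.544% were called higher and 0.0778% lower. In lists this short, 0 calls do not show that the genes stayed level. HSPH1, a heat shock protein, had log2 ratios of -0.60 in SCC15 and -0.40 in CAL27 (shared adjusted p = 0.563, edgeR). HSPA1A, an inducible chaperone with a near-identical copy in HSPA1B, had 73 and 21 reads in SCC15 cells with decitabine and DMSO and 1265 and 929 in CAL27 cells (adjusted p = 0.422), and its count is uncertain for the copy. FKBP5, a glucocorticoid-induced chaperone, had log2 ratios of -0.34 and -0.57 (adjusted p = 0.635), and TSC22D3, another target of the receptor, had 0.85 and 0.81 (adjusted p = 0.52). Between lines, 5 of the 11 stress genes were lower in SCC15 and 0 higher, where 22.7% of all genes were lower and 21.6% higher. A level of 1 CPM was reached by 10 of the 11 in SCC15 and by 11 in CAL27, and the list holds both HSPA1A and HSPA1B. The count of 5 is therefore no measure of how often such genes differed. HSPA1A had a log2 difference of -4.70 ± 0.37 (edgeR adjusted p = 2.82e-13). Of the 7 glucocorticoid genes, 2 were lower in SCC15 and 1 higher, beside the same 22.7% and 21.6% of all genes. FKBP5 was lower, with a log2 difference of -3.97 ± 0.34 (edgeR adjusted p = 1.79e-12).

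**Figure D5:**
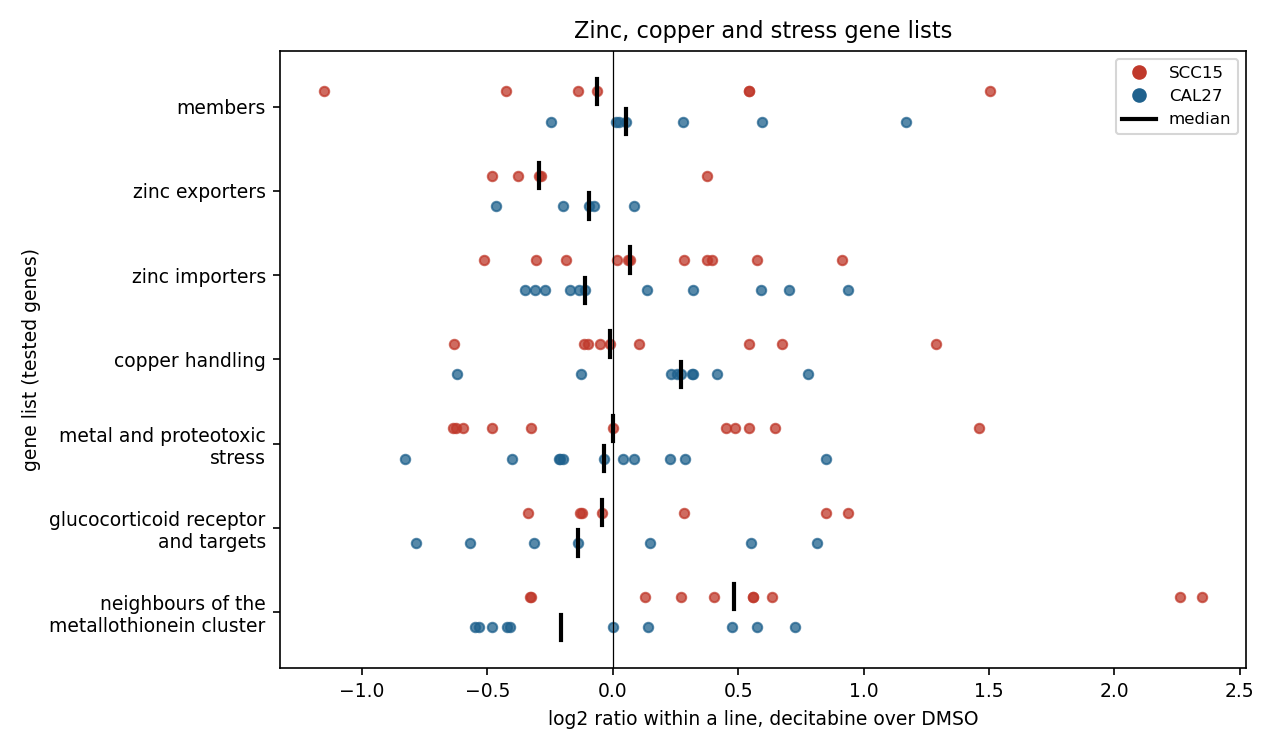
Log2 ratio of decitabine over DMSO within SCC15 and within CAL27 for the tested genes of each list, 1 point per gene, with the median as a black bar. Medians lie between -0.30 and 0.48 in SCC15 and between -0.21 and 0.27 in CAL27. In the shared test 0 of these genes passed, beside 0.544% of all genes tested higher and 0.0778% lower.

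Neighbours of the cluster had medians of 0.48 in SCC15 and -0.21 in CAL27 with decitabine, and 0 of 10 passed. HERPUD1, a protein of endoplasmic reticulum quality control, had log2 ratios of 0.56 and 0.47 (shared adjusted p = 0.539, edgeR), and GNAO1 had 2.26, from 14 against 1 read, and 0.72 (adjusted p = 0.374). Neither the metallothioneins nor the genes beside them held a call, where 0.544% of all genes tested were called higher and 0.0778% lower.

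The genes most like the metallothionein sum over the 4 libraries, by the distance between log2 levels centred on each gene's mean among 14142 genes, were GPR155, PSTPIP2 and GINM1, at distances of 0.04, 0.11 and 0.12. GPR155 had 35 and 39 reads in SCC15 cells with decitabine and DMSO and 128 and 94 in CAL27 cells. Those most like SLC30A1 were KCTD14, ACTR10 and TCTN3, at 0.04, 0.05 and 0.05. With 4 libraries, such likeness is a description of these libraries alone.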

How the data were processed

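Whole-number read counts per gene and FPKM values were deposited by the authors in 1 table of 4 libraries, per the file headers. The genome build GRCh38 and the tools HISAT2 and HTSeq 0.13.5 are named, per the submitters' processing notes. For the annotation release, the strand setting and the treatment of multiply matching reads: not given in the sources used here. The deposited FPKM implied gene lengths equal to the GENCODE 29 exon union for 99.7% of 28642 genes with reads, and all 51103 identifiers were found in that release. Counts were tested with edgeR 4.0.16 in R 4.3.3 (TMM scaling, minimum count 10, minimum total 15, 1 residual degree of freedom, prior degrees of freedom 36.1), with terms for line and treatment. The pairing comes from the labels, which give the line of each library; libraries of 1 line correlated at r = 0.963 (SCC15) and 0.983 (CAL27) and those across lines at 0.73 or less, on log2 CPM over genes. Within-line log2 ratios use TMM-scaled counts with a prior count of 2, and counting intervals are exact conditional binomial, at 95%. Alternatives used DESeq2 1.42.0, limma 3.58.1, total-count scaling, other filters and a removed GC trend. Members and gene lists were chosen with earlier results of these data known. Named from each list were genes that passed the test or were 2-fold changed in both lines, or else the 2 with the largest same-sign ratio in the weaker line and a maximum of 10 or more reads in both lines. All 8 members were named.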

Additional observations from a re-analysis of the deposited data

Results flagged for a closer look

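For 3 tested members, the log2 ratio of decitabine over DMSO had opposite signs in the 2 lines, and with 1 library a group the difference was not tested. For MT1X the ratio was -1.15 in SCC15 and 0.05 in CAL27, a difference of -1.20, from 15 to 30 reads per library. For MT2A it was -0.42 in SCC15 and 0.28 in CAL27, a difference of -0.71. For SLC30A1 it was -0.14 and 0.03, a difference of -0.17, and both counting intervals include 0. With the GC trend removed, the ratios of SLC30A1 were 0.30 in SCC15 and 0.13 in CAL27 and those of MT1X were -1.52 and -0.01, so that MT2A alone of the 3 had opposite signs, at -0.80 and 0.21. Of all 15427 genes tested, the ratio was positive in both lines for 31.0% and negative in both for 27.6%.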

How the results depend on the processing

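The 0 calls of members with decitabine and the 5 lower members in SCC15 were the same counts under every alternative that was run for each. MT1E, MT1F and MT1M could come out only as lower, so the steady count of 5 is no added evidence for them. DESeq2 gave no adjusted p for MT1F, MT1M and MT1X with decitabine. Counts of all genes with decitabine, 84 higher and 12 lower, moved to 313 and 21 with total-count scaling, 155 and 21 with no filter on low counts, 1 and 1 with limma on log2(FPKM + 1), and 27 higher with DESeq2. With the GC trend removed they were 0 and 0 (755 and 512 at an unadjusted p of 0.05), where prior degrees of freedom were 13.5 and the smallest adjusted p was 0.0584. In the fit with no replicate block, which drops the pairing by cell line, they were 0 and 0 (20 and 3 unadjusted). At a level of at least 5 CPM, the genes past 2-fold numbered 1144 higher and 423 lower in SCC15, and 193 higher and 41 lower in CAL27.

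Folds near 0 turned sign. The shared log2 fold of MT2A was 0.0051 with total-count scaling, 0.0045 and 0.0044 with limma on log2(FPKM + 1) and log2(FPKM + 0.1), and 0.075 with no replicate block. That of SLC30A1 was 0.020 with total-count scaling, 0.21 with the GC trend removed, and 0.018 and 0.020 with the limma fits in the same order. The SCC15 over CAL27 log2 difference of MT1X was -0.068 with total-count scaling and -0.0073 and -0.066 with the limma fits. That of SLC30A1 was -0.13 with total-count scaling, -0.0063 with DESeq2, -0.0064 with at least 30 reads in 2 libraries, and -0.12 and -0.13 with the limma fits. The cause was not tested. Depth limits MT1X, MT1G and, in SCC15, MT1E, MT1F and MT1M.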

Other observations

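Other zinc transporter genes had too few reads to be tested and are given as counts. SLC30A2, an exporter known from secretory tissue, had 1 and 0 reads in SCC15 cells with decitabine and DMSO and 11 and 0 in CAL27 cells, at least 3.29-fold higher with decitabine in CAL27 against the floor of 3 reads. SLC39A5, an importer, had 7 and 0 reads in SCC15 cells, at least 1.95-fold higher against that floor, and 6 and 3 in CAL27 cells. The counting intervals allow smaller folds: those of the log2 ratio started at 1.17 for SLC30A2 in CAL27 and 0.27 for SLC39A5 in SCC15. SLC30A3, an exporter known from synaptic vesicles, had 8 and 1 reads in SCC15 cells and 1 and 0 in CAL27 cells.

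Beside the cluster, SLC12A3, a sodium chloride cotransporter known from kidney, had the opposite layout to MT1E. It had 119 and 18 reads in SCC15 cells with decitabine and DMSO and 0 and 0 in CAL27 cells. Within SCC15 the ratio was 5.51 (95% counting interval 3.34 to 9.62), and the shared log2 fold did not pass (edgeR adjusted p = 0.309). These 4 genes were named with their values seen.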
